A study of Mus musculus with 12 samples.

Results

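The GIMAP genes (GTPases of the immunity-associated protein family) were followed through 11 RNA-seq libraries of mouse thymocytes. Every entry of the expression table named Gimap1, Gimap3, Gimap4, Gimap5, Gimap6, Gimap7, Gimap8 or Gimap9 was taken. All 8 were listed, among 11815 entries in the table, and all 8 had a value above 0 in each of the 11 libraries.

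GIMAP proteins bind GTP and GDP through a domain that the family shares, and most are attached to internal membranes of lymphocytes. They are best known for deciding how long T cells live, and in the thymus the family as a whole is linked to the steps after the CD4+ CD8+ stage, when thymocytes that passed selection mature and leave. Mice or rats without Gimap5 lose most peripheral T cells, Gimap3 is its closest relative in the mouse, Gimap1 is needed for mature T and B cells to survive, Gimap4 alters how quickly T cells complete cell death, and Gimap6 works with the GABARAP proteins of autophagy.

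RNA was sequenced from double-positive (DP) thymocytes, invariant natural killer T (iNKT) cells, which carry an invariant receptor for lipids on CD1d, and γδ T cells. The study asked what Id2 and Id3, inhibitors of E protein transcription factors such as E2A, do in these cells. WT iNKT cells gave 1 library, since the authors set a second one aside as low in quality, and the other 5 groups, named for genotype and cell type, gave 2 each. Levels are FPKM, fragments scaled to transcript length and to the library's total, so that levels can be compared between genes.

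L-DKO mice carried floxed alleles of both genes, Id2 f/f Id3 f/f, and LckCre+, so that the Lck promoter switches Cre on in developing T cells and other thymic cells keep both genes. Id3KO mice were Id3-/- in every cell and had an intact Id2. WT mice served as controls. All mice were C57BL/6 or C57BL/6 crossed with 129, and were 4 to 5 weeks old. Cells of 2 to 3 mice were pooled for a library. iNKT cells were sorted as CD1dTet+ TCRβ+ and γδ cells as TCRγδ+ CD3+. By the labels, WT DP cells were gated as TCRγδ- CD4+ CD8+ and L-DKO DP cells as CD1dTet- CD4+ CD8+, while the methods describe the first of these gates for both genotypes. If the labels hold, gate and genotype cannot be told apart in that comparison. The methods give much lower numbers of sorted cells for WT than for mutants, so cell input and genotype cannot be told apart either. Library a of a group is the one whose column comes first, and b the other.

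The libraries differed in make-up. Their FPKM summed to between 498489 and 1020310, highest in WT iNKT, of which 30.4% to 61.7% came from small RNA, receptor segments or predicted genes. Id2 was at 553 FPKM in WT iNKT, while L-DKO iNKT libraries had it listed at 0 and at 0.199, but Id3 was at 42.4 in WT iNKT and still at 30.5 and 22.8 in them, so they are called by their label where a direction is drawn from them. In the Id3KO γδ libraries Id3 was at 3.95 and 3.07 FPKM, against 157 and 96.7 in WT γδ. The 4 general T cell markers summed to 888 to 1424 FPKM in every library. The 4 measured of 6 γδ markers summed to 498 FPKM in WT iNKT, 12.1 to 33.3 in L-DKO iNKT, 860 to 1401 in the γδ libraries and at most 5.31 in DP, while Trdc and Blk were not in the table. In WT iNKT, Tcrg-C1, Tcrg-C2 and Tcrg-C4 were at 150, 217 and 125 FPKM. Sox13, the other one measured, was at 6.05 there and averaged 243 in WT γδ and 7.5 in L-DKO iNKT. The 5 measured of 8 myeloid and dendritic markers summed to 97.3 FPKM in WT iNKT, 183 to 217 in WT γδ and 7.81 to 33.9 elsewhere.

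The 8 genes lie side by side. In GRCm38.p6 they fill chr6:48647186-48770851, 124 kb that hold 10 RefSeq genes. The other 2 are a pseudogene and a long noncoding RNA, and neither was measured. From the lower coordinate the order is Gimap8, Gimap9, Gimap4, Gimap6, Gimap7, Gimap1, Gimap5 and Gimap3, with Gimap6 and Gimap3 on the minus strand.

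Promoters of 4 members are shown because these genes carry the contrasts described next. Gimap4, Gimap5 and Gimap3 had low FPKM in DP cells and high FPKM in iNKT and γδ cells. Gimap9 had its highest group means in DP cells, but none of its tested differences from DP passed the threshold used below. Each sequence is the strand of the gene, 5′ to 3′, 250 bases before to 50 bases after the RefSeq start, in GRCm38.p6. Capitals mark matches on either strand to CAGCTG or CAGGTG (forms of the E-box that E proteins bind), ACCACA (Runx factors) or CTTTGA (Tcf and Lef factors). The windows are chr6:48684328-48684627 (+) for Gimap4, chr6:48745947-48746246 (+) for Gimap5, chr6:48770802-48771101 (-) for Gimap3 and chr6:48675885-48676184 (+) for Gimap9.
Gimap4: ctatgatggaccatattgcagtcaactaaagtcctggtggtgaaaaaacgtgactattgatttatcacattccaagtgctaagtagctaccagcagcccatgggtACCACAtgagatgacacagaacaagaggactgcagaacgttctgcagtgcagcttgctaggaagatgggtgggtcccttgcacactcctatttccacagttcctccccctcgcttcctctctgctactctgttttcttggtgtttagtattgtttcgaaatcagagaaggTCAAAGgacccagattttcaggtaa
Gimap5: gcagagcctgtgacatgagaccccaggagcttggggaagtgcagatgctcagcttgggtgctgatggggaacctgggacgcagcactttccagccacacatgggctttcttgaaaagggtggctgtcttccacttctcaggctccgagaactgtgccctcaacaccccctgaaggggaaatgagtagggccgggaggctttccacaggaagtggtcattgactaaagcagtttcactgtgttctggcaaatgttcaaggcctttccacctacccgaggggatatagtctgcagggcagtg
Gimap3: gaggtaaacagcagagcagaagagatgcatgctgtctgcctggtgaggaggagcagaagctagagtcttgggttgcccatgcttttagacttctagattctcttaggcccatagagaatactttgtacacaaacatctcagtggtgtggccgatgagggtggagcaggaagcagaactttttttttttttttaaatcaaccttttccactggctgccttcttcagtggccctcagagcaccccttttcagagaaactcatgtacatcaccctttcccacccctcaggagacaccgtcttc
Gimap9: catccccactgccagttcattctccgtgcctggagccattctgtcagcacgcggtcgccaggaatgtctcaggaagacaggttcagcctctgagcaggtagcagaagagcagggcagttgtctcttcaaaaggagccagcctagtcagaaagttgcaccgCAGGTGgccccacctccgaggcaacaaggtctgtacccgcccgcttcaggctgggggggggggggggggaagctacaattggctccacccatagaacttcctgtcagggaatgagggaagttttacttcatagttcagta

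Gimap4 held 1 match to ACCACA, starting 145 bases before the start, and 1 to CTTTGA, read as TCAAAG on the gene's strand and starting 25 bases after it. Gimap9 held 1 match to CAGGTG, 90 bases before its start. Of the members not shown, Gimap1 held ACCACA and Gimap7 held ACCACA and CTTTGA. No match lay in the windows of Gimap3, Gimap5, Gimap6 or Gimap8, and none of the 8 genes held CAGCTG. Among 32851 RefSeq promoters of the same length, CAGCTG occurred in 16.3%, CAGGTG in 20.2%, ACCACA in 16.8% and CTTTGA in 16% (no motif overlapped another in the members). These are matches of letters in a window and describe no binding.

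In WT DP cells the family was led by 3 genes. Gimap6 stood at 90.5 and 85.4 FPKM, Gimap9 at 60.4 and 57.0, and Gimap1 at 52.7 and 53.0. Together these 3 made up most of a family sum of 246 and 240 FPKM, while Gimap4 supplied 1.37% of it and Gimap3 0.976%. The family sum was 451 and 396 FPKM in WT γδ and 725 in WT iNKT. These sums are not scaled to the library totals, which differed in the same direction. All entries summed to 563040 and 498489 FPKM in WT DP, 689988 and 933593 in WT γδ and 1020310 in WT iNKT. How much of the difference in family sum goes with these totals was not tested. Gimap4 supplied 14.6% of the sum in WT γδ and 37.4% in WT iNKT.

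**Figure D1:**
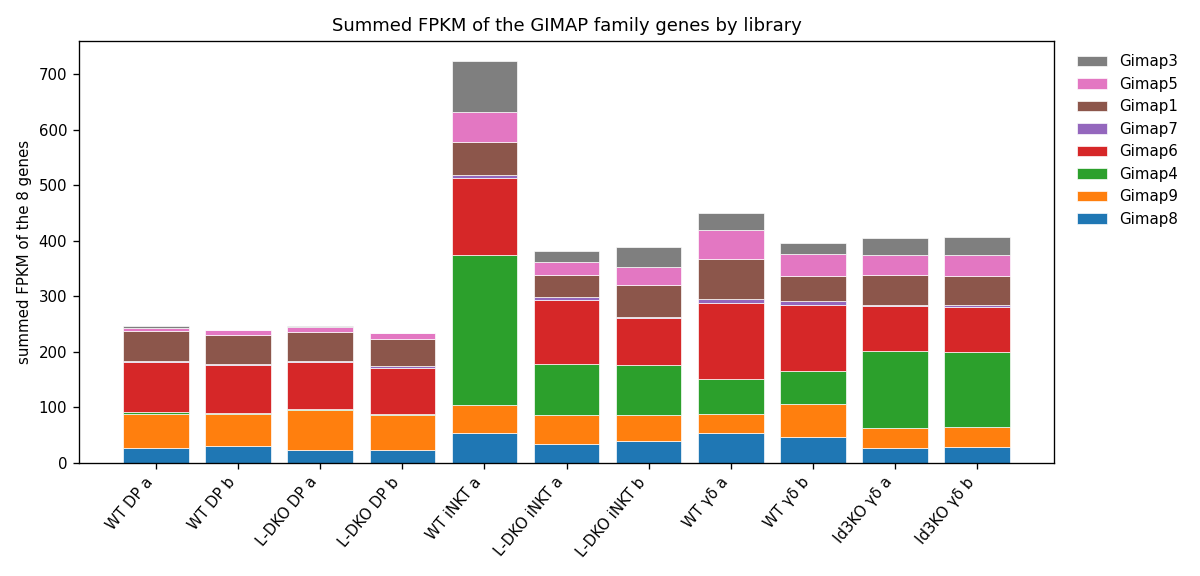
FPKM of the 8 GIMAP genes stacked for each of the 11 libraries, so that the bar height is the family sum on a linear axis from 0. The 4 DP bars reach 235 to 246 FPKM with a thin Gimap4 band, the WT iNKT bar reaches 725, and the Gimap4 band (green) is wide in the WT iNKT and both Id3KO γδ libraries. The bars are not scaled to the FPKM totals of the libraries, which differ.

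The first comparison asked how the family differs between DP cells and 2 other kinds of T cell within WT mice. By background knowledge iNKT cells arise from DP cells, whereas γδ cells branch off earlier, so the γδ contrast is between lineages and is no step out of the DP stage. Gimap3, Gimap4, Gimap5 and Gimap8 had higher FPKM in iNKT than in DP cells, and the same 4 had higher FPKM in γδ than in DP cells. Gimap4 changed most in both. No member was lower past the threshold (limma, adjusted p under 0.05). Both comparisons use the same 2 WT DP libraries, so they are not independent. Marker sums of other cells were also higher than in WT DP. The γδ marker sum was 498 FPKM in WT iNKT against at most 4.49 in WT DP, and the myeloid sum was 97.3 in WT iNKT and 183 to 217 in WT γδ against 7.81 to 8.24 in WT DP. Most of the 498 came from the Tcrg genes, while Sox13 was at 6.05 FPKM in WT iNKT against an average of 243 in WT γδ. The part of these markers in the results was not tested.

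Gimap4 FPKM was 3.65 and 3.02 in WT DP, 271 in WT iNKT, and 62.8 and 60.1 in WT γδ. The DP libraries lay far below all the others. The difference of mean log2(FPKM + 1) from DP was 5.97 ± 0.23 (SE) in iNKT (limma, adjusted p = 7.25e-05) and 3.85 ± 0.19 in γδ (limma, adjusted p = 0.00013).

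Gimap5, whose loss shortens the life of T cells, was listed at 5.78 and 7.39 FPKM in WT DP, 53.9 in WT iNKT, and 51.1 and 40.4 in WT γδ. The iNKT and γδ libraries lay close together and clearly apart from DP. The log2 difference from DP was 2.86 ± 0.26 in iNKT (limma, adjusted p = 0.00053) and 2.62 ± 0.22 in γδ (limma, adjusted p = 0.00044).

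Gimap3, its close relative, went from 3.50 and 1.27 FPKM in WT DP to 91.9 in WT iNKT and to 31.7 and 18.9 in WT γδ. The 3 cell types did not overlap. The log2 difference from DP was 4.86 ± 0.49 in iNKT (limma, adjusted p = 0.00068) and 3.00 ± 0.40 in γδ (limma, adjusted p = 0.0025). Of the 857 stretches of 50 bases in the Gimap3 transcript, 22.2% also occur in Gimap5, so reads may have been shared between these 2 genes and their FPKM are uncertain to that extent. Of the stretches of Gimap5 3.2%, and of those of Gimap7 2.62%, also occur in Gimap1, which had higher FPKM than either in DP cells. What this sharing adds to their low DP values was not tested. Gimap4 shared no such stretch with any other member.

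Gimap8, a member with several GTP-binding domains, was higher by less. Its FPKM was 27.1 and 30.7 in WT DP, 53.4 in WT iNKT, and 54.2 and 47.2 in WT γδ, with every DP library below the other 3. The log2 difference was 0.87 ± 0.21 in iNKT (limma, adjusted p = 0.0195) and 0.79 ± 0.17 in γδ (limma, adjusted p = 0.0157). The iNKT call was lost without WT DP library a (limma, adjusted p = 0.0791), and the γδ call without WT DP library a (0.0863), WT DP library b (0.0531) or WT γδ library a (0.0725, all limma adjusted p). Both calls were also lost when only the compared groups were fitted (0.0905 in iNKT and 0.0654 in γδ), and the iNKT call with small RNA, receptor segments and predicted genes dropped, where the difference was 0.51 (0.129, all limma adjusted p). With every library brought to 1 common FPKM total, the Gimap8 difference was -0.06 in iNKT and 0.21 in γδ, neither past the threshold.

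The remaining 4 members did not pass in either WT comparison. Gimap6 stood at 138 FPKM in WT iNKT and at 136 and 118 in WT γδ, all above its 2 DP values, with a log2 difference from DP of 0.64 in iNKT (limma, adjusted p = 0.0796) and 0.52 in γδ (limma, adjusted p = 0.0891). Scaled to the same total, these became -0.29 and -0.07. Leaving out L-DKO iNKT library a or b, which enter only through the shared spread, brought the iNKT difference of Gimap6 to a limma adjusted p of 0.0497.

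Gimap7, the scarcest member outside DP cells, was at 2.37 and 1.98 FPKM in WT DP, 5.08 in WT iNKT, and 7.45 and 8.04 in WT γδ. Both γδ libraries were above every other WT library. The log2 difference between γδ and DP was 1.46 ± 0.45 (limma, adjusted p = 0.054), and it passed without L-DKO iNKT library a or b (0.0117 each) or without Id3KO γδ library a or b (0.047 each, limma adjusted p). It also passed when only these 2 groups were fitted (0.0093) and with small RNA, receptor segments and predicted genes dropped (0.0389, limma adjusted p).

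Gimap1 and Gimap9 had the smallest fitted differences from DP in WT iNKT and γδ cells. Gimap1 was at 61.0 FPKM in WT iNKT and at 72.8 and 44.8 in WT γδ, and its γδ libraries lay on both sides of DP. Gimap9 was at 50.4 in WT iNKT and at 34.4 and 58.6 in WT γδ, where its libraries overlapped those of WT DP. Its log2 difference from DP was -0.22 in iNKT and -0.38 in γδ (limma, adjusted p = 0.642 and 0.307). The antisense transcript Gimap1os was listed between 5.88 and 16.96 FPKM over the 11 libraries, and the sources used here do not say whether counting used strand, so reads of Gimap1 and Gimap1os may not have been told apart.

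Of all entries, 25% passed between WT iNKT and DP and 16.3% were higher, beside 4 of 8 GIMAP genes. Between WT γδ and DP 20.6% passed and 14.6% were higher, again beside 4 of 8. The median log2 difference of the 8 members was 0.90 in iNKT and 1.13 in γδ, and that of all entries 0.11 in both. Scaling to the same total moved the median of all entries to -0.73 and -0.43. It also changed the share of called entries that were higher, from 65.1% to 14.8% in iNKT and from 70.8% to 19.5% in γδ. Quantile normalization gave 48.8% and 52.6%, and dropping small RNA, receptor segments and predicted genes 38.5% and 58.7%. The calls of Gimap3, Gimap4 and Gimap5 in both comparisons held under each alternative run, scaling to the same total included. No run of the iNKT comparison could leave out the WT iNKT library, the only one of its group. Scaled to the same total, the iNKT differences of Gimap3, Gimap4 and Gimap5 were 4.04, 5.11 and 1.97.

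**Figure D2:**
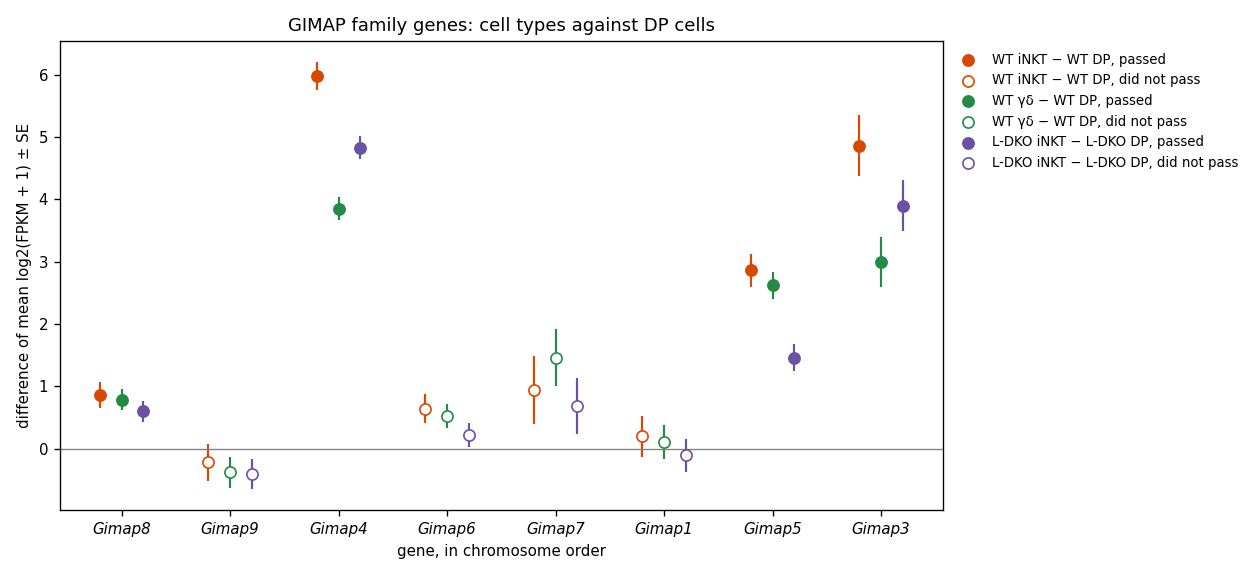
Difference of mean log2(FPKM + 1) ± SE between iNKT or γδ cells and DP cells for each GIMAP gene, in chromosome order. Filled points passed the threshold (limma, adjusted p under 0.05) and open ones did not. Gimap4, Gimap5 and Gimap3 stand well above 0 in all 3 comparisons, Gimap8 is filled near 0.6 to 0.9, and Gimap9 and Gimap1 lie near 0.

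WT iNKT and WT γδ cells were then set against each other. Only Gimap4 differed past the threshold, at 271 FPKM in the iNKT library and about 61.4 on average in γδ, a log2 difference of 2.12 ± 0.23 (limma, adjusted p = 0.0052). This held under every alternative run, but none of them could leave out the WT iNKT library. Gimap3 was 1.87 ± 0.49 higher in iNKT on the log2 scale (limma, adjusted p = 0.0988), and passed when the fit held these 2 groups alone (0.00034, limma adjusted p, on 1 residual degree of freedom). Over all entries 2.78% passed here and 1.22% were higher in iNKT. That is 43.9% of the called entries, beside 31.2% under scaling to the same total and 22.1% with small RNA, receptor segments and predicted genes dropped. The WT iNKT group is 1 library, and its spread was assumed to be like that of the others.

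The L-DKO cells gave a further contrast of iNKT with DP. Its group means come from libraries other than the WT ones above, but all libraries share 1 spread in the fit. The contrasts are therefore not fully independent. Gimap3, Gimap4, Gimap5 and Gimap8 were again the 4 higher members. Gimap4 went from 2.73 and 1.78 FPKM in L-DKO DP to 91.8 and 89.4 in libraries labelled L-DKO iNKT, a log2 difference of 4.83 ± 0.19 (limma, adjusted p = 3.55e-05). Gimap3 went from 0.651 and 1.04 to 19.7 and 35.2, a difference of 3.90 ± 0.40 (limma, adjusted p = 0.00057). Neither gene had overlapping libraries.

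Gimap5 in L-DKO cells was at 9.28 and 9.57 FPKM in DP and 23.6 and 32.6 in iNKT, a log2 difference of 1.46 ± 0.22 (limma, adjusted p = 0.0026). Gimap8 was at 23.9 and 22.6 in DP and 33.4 and 38.5 in iNKT, a difference of 0.61 ± 0.17 (limma, adjusted p = 0.0359). The Gimap8 call was lost without any one of WT DP a or b (0.0528 each), L-DKO DP a (0.143) or b (0.189) and L-DKO iNKT a (0.0564) or b (0.145), and when only these groups were fitted (0.0585), all limma adjusted p. In this comparison 24.3% of entries passed and 13.4% were higher, the higher share of called entries being 55.4% here and 79.3% under scaling to the same total, and the median log2 difference was 0.65 for the members and -0.01 for all entries.

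Loss of Id2 and Id3 was compared in DP cells first. None of the 8 genes passed (limma, lowest adjusted p = 0.444), and none had an unadjusted p under 0.05. Over all entries 0.178% passed. The libraries of the 2 genotypes did not overlap for any of the 8, beside 55.3% of all entries. Gimap4 had a log2 difference of -0.43 ± 0.19 and Gimap3 one of -0.80 ± 0.40, while Gimap5 had one of 0.47 ± 0.22. Of the 3 leading members in L-DKO DP, Gimap6 was at 83.9 and 83.6 FPKM, Gimap9 at 71.2 and 63.9 and Gimap1 at 52.4 and 50.3.

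In iNKT cells Gimap4 was lower in the libraries labelled L-DKO, and it was the one member to pass. The WT library had 271 FPKM and the L-DKO libraries 91.8 and 89.4, a log2 difference of -1.57 ± 0.23, or 2.97-fold lower (limma, adjusted p = 0.0089). Over all entries 6.07% passed and 3.88% were lower. The γδ marker sum, 498 FPKM in WT iNKT and 12.1 to 33.3 in L-DKO iNKT, differed in the same direction. Of its 4 genes 3 were lower past the threshold, while Sox13 was at 6.05 FPKM in WT iNKT and averaged 7.5 in L-DKO iNKT. The myeloid sum, 97.3 against 19.0 to 29.0, did so too, with 4 of its 5 genes lower past the threshold. Itgam was higher past it, at 1.28 FPKM in WT iNKT and 11.3 on average in L-DKO iNKT. The sum of the 4 measured iNKT markers was also lower, 520 against 237 to 269, with 1 of them higher and 1 lower past the threshold. The part of these marker sets in the result was not tested.

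The call for Gimap4 was lost when the fit held the 2 iNKT groups alone (limma, adjusted p = 0.201, on 1 residual degree of freedom), and when each library was given 1 common total, where the difference was -0.60 (limma, adjusted p = 0.141). Under that scaling 1 other member passed, from those whose fold changes were not followed. The scaling moved the median of all entries in this comparison from -0.07 to 0.80 and the share of called entries that were higher from 36% to 94%, and that share was 46.7% after quantile normalization and 52.7% with small RNA, receptor segments and predicted genes dropped. The Gimap4 call held without either L-DKO iNKT library, and with the WT library alone in its group it has no replicate on that side.

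Gimap3 and Gimap5 had lower values in L-DKO iNKT that did not pass. WT had 91.9 FPKM of Gimap3, against 19.7 and 35.2 for L-DKO (log2 difference -1.76 ± 0.49, limma, adjusted p = 0.0901, and -0.80 with libraries scaled to 1 common total). Gimap5 was at 53.9 in WT and 23.6 and 32.6 in L-DKO (-0.94 ± 0.26, limma, adjusted p = 0.0914). In both genes the WT library was the highest of all 11.

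Gimap6 at 114 and 83.7 FPKM and Gimap8 at 33.4 and 38.5 were likewise under the WT iNKT library, with log2 differences of -0.49 and -0.56 (limma, adjusted p = 0.314 and 0.19). When libraries were scaled to the same total, the differences of Gimap5, Gimap6 and Gimap8 were 0.02, 0.48 and 0.39. Gimap7 was at 6.72 and 1.83 FPKM in the 2 L-DKO iNKT libraries, on both sides of WT. The median over the 8 members was -0.53, beside -0.07 for all entries.

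In γδ cells Gimap4 moved the other way. Its FPKM was 62.8 and 60.1 in WT and 139 and 136 in Id3KO, 1.15 ± 0.19 higher on the log2 scale, or 2.22-fold (limma, adjusted p = 0.0084). Gimap8 was lower, at 54.2 and 47.2 in WT and 25.9 and 28.8 in Id3KO, a log2 difference of -0.87 ± 0.17 (limma, adjusted p = 0.0155). For both genes the replicates were close and the genotypes clearly apart. Over all entries 15.1% passed, 6.8% higher and 8.35% lower. The share of called entries that were higher, 44.9%, became 61.5% under scaling to the same total and 24.8% with small RNA, receptor segments and predicted genes dropped.

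The Gimap4 call held without any one library, and missed the threshold when only the γδ groups were fitted (limma, adjusted p = 0.0508). The Gimap8 call was lost in that fit (0.0983), under scaling to 1 common total (0.135), without WT γδ library a (0.0736) and without Id3KO γδ library a (0.0555, all limma adjusted p). Myeloid markers, 183 to 217 FPKM in WT γδ and 15.99 to 33.9 in Id3KO γδ, and the 12 DP stage genes, 756 to 1019 in WT and 271 to 325 in Id3KO, differed between the same groups. The sum of the 4 measured of 6 iNKT markers moved in the direction of Gimap4, at 115 to 161 FPKM in WT γδ and 294 to 363 in Id3KO γδ. Of these markers 2 were higher past the threshold, and Klrb1c and Tbx21 were not in the table. Zbtb16 averaged 16.8 FPKM in WT γδ and 153 in Id3KO γδ, and Slamf6 18.8 and 72.6. Il2rb averaged 84.4 and 88.5, while Cd44 averaged 18.2 and 14.0. The part of these marker sets in the results was not tested, and in bulk libraries fewer cells of a type and less RNA per cell cannot be told apart.

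Gimap6, the partner of autophagy proteins, was at 136 and 118 FPKM in WT γδ and 79.6 and 80.0 in Id3KO γδ, a log2 difference of -0.66 ± 0.19 that did not pass (limma, adjusted p = 0.0539). It passed without L-DKO iNKT library a or b (0.0341 each), with a trend in limma (0.045), after quantile normalization (0.0406) and with small RNA, receptor segments and predicted genes dropped (0.017, all limma adjusted p), and did not pass under the other alternatives, scaling to the same total among them. Gimap7 was at 7.45 and 8.04 in WT γδ and 2.19 and 4.74 in Id3KO γδ, a difference of -1.03 ± 0.45 (limma, adjusted p = 0.161), which passed without L-DKO iNKT library a or b (0.0489 each). The libraries of WT and Id3KO γδ did not overlap for 5 of the 8 members, Gimap4 (higher in Id3KO) and Gimap5, Gimap6, Gimap7 and Gimap8 (lower). The share of all entries without overlap is not given for this comparison, so nothing is read from that count.

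The other 4 genes did not pass. Gimap3 was at 30.8 and 32.4 FPKM in Id3KO γδ and Gimap5 at 36.8 and 38.7. Gimap1 was at 54.5 and 51.2, and Gimap9 at 37.2 and 35.9. The median log2 difference over the 8 members was -0.28, beside -0.08 for all entries.

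**Figure D3:**
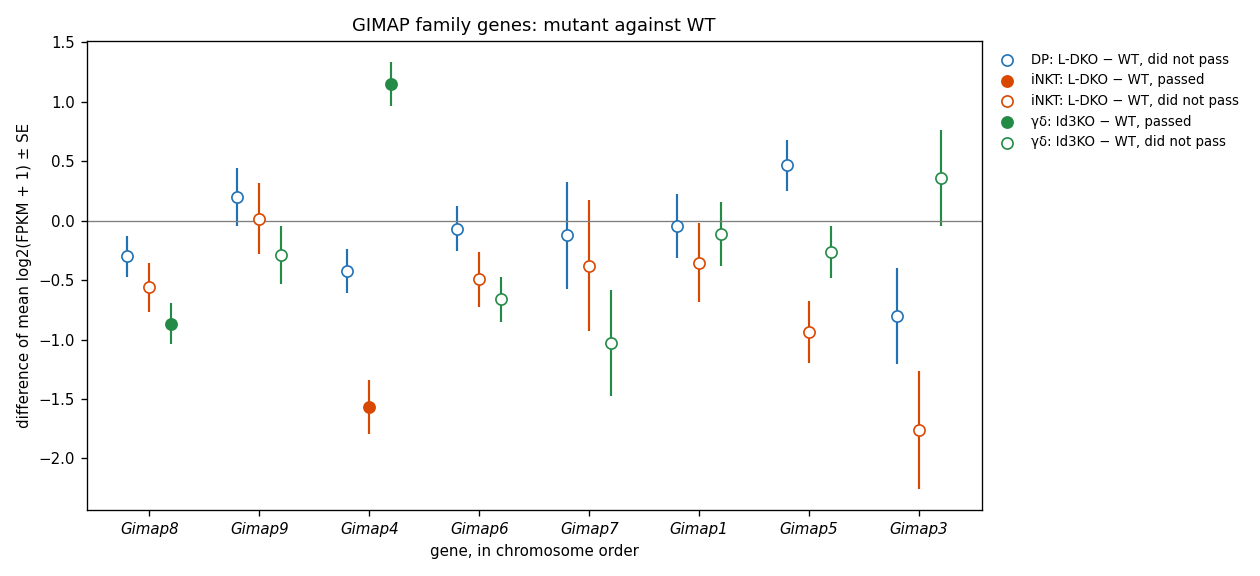
Difference of mean log2(FPKM + 1) ± SE between mutant and WT for each GIMAP gene in DP, iNKT and γδ cells, in chromosome order, with filled points past the threshold (limma, adjusted p under 0.05). Gimap4 is filled at -1.57 in iNKT and at 1.15 in γδ, Gimap8 is filled at -0.87 in γδ, and no DP point is filled.

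The difference between these effects was tested in the same model. The Gimap4 effect in iNKT was below that in γδ, with a log2 difference of -2.72 ± 0.29 (limma, adjusted p = 0.0035), and this held under every alternative run. Scaled to the same total it was -1.87. No run of this contrast could leave out the WT iNKT library, the only one of its group. Over all entries 6.6% passed and 3.35% were lower. Of the called entries 49.2% had a higher value, beside 88.2% under scaling to the same total and 78.1% with small RNA, receptor segments and predicted genes dropped. Gimap3 had a difference of -2.12 ± 0.64 (limma, adjusted p = 0.0923), which was -1.28 under that scaling. The labelled genotypes differ between these arms, L-DKO in one and Id3KO in the other, so genotype and cell type cannot be told apart.

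The Gimap4 effect in γδ was 1.57 ± 0.26 above that in DP (limma, adjusted p = 0.0255), where 2.52% of entries passed and 0.804% were higher. The higher share of called entries was 31.9%, beside 67.3% under scaling to the same total and 50.2% after quantile normalization. It was lost without any one of WT DP a (0.0974) or b (0.0637), L-DKO DP a (0.0696) or b (0.108), WT γδ a (0.0798) or b (0.0579) and Id3KO γδ b (0.0585, all limma adjusted p). Between iNKT and DP no member's effect differed past the threshold, and 1.73% of entries passed. By limma 2 members had an unadjusted p under 0.05 there, Gimap4 with -1.14 (adjusted p = 0.105) and Gimap5 with -1.40 (adjusted p = 0.0907). Scaled to the same total, these became 0.12 and -0.12, and the higher share of called entries went from 28.4% to 96.9%.

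The L-DKO iNKT and Id3KO γδ libraries were also set side by side. No member passed (limma, lowest adjusted p = 0.129, 1 with an unadjusted p under 0.05), beside 3.98% of entries. Of these 52.1% were higher in L-DKO iNKT, beside 85.8% under scaling to the same total. Gimap4 was nearest, at 91.8 and 89.4 FPKM in libraries labelled L-DKO iNKT and 139 and 136 in Id3KO γδ, a log2 difference of -0.60 ± 0.19, or -0.097 under that scaling. The libraries of these groups did not overlap for Gimap4.

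Gimap4 and Gimap3 spanned the widest range of the family. From the lowest to the highest of the 11 libraries Gimap4 ran from 1.78 FPKM in L-DKO DP b to 271 in WT iNKT, 152-fold, and Gimap3 from 0.651 in L-DKO DP a to 91.9 in WT iNKT, 141-fold. These spans are ratios of FPKM and rest on low DP values, which for Gimap3 lay between 0.651 and 3.50. On the log2(FPKM + 1) scale the ranges were 6.61 for Gimap4 and 5.81 for Gimap3. Gimap5 spanned 9.33-fold and Gimap7 4.39-fold. The others spanned 2.40-fold (Gimap8), 2.07-fold (Gimap9), 1.88-fold (Gimap1) and 1.73-fold (Gimap6).

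By group mean Gimap4 ran in the order WT iNKT, Id3KO γδ, L-DKO iNKT, WT γδ, WT DP, L-DKO DP, with no overlap of libraries between neighbours. Gimap3 had the same order, but Id3KO γδ, L-DKO iNKT and WT γδ overlapped in turn. Gimap5 ran WT iNKT, WT γδ, Id3KO γδ, L-DKO iNKT, L-DKO DP and WT DP without overlap. Gimap9 was highest in L-DKO DP and then WT DP, while its iNKT and γδ groups overlapped in turn, and for Gimap1 each group overlapped the next.

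**Figure D4:**
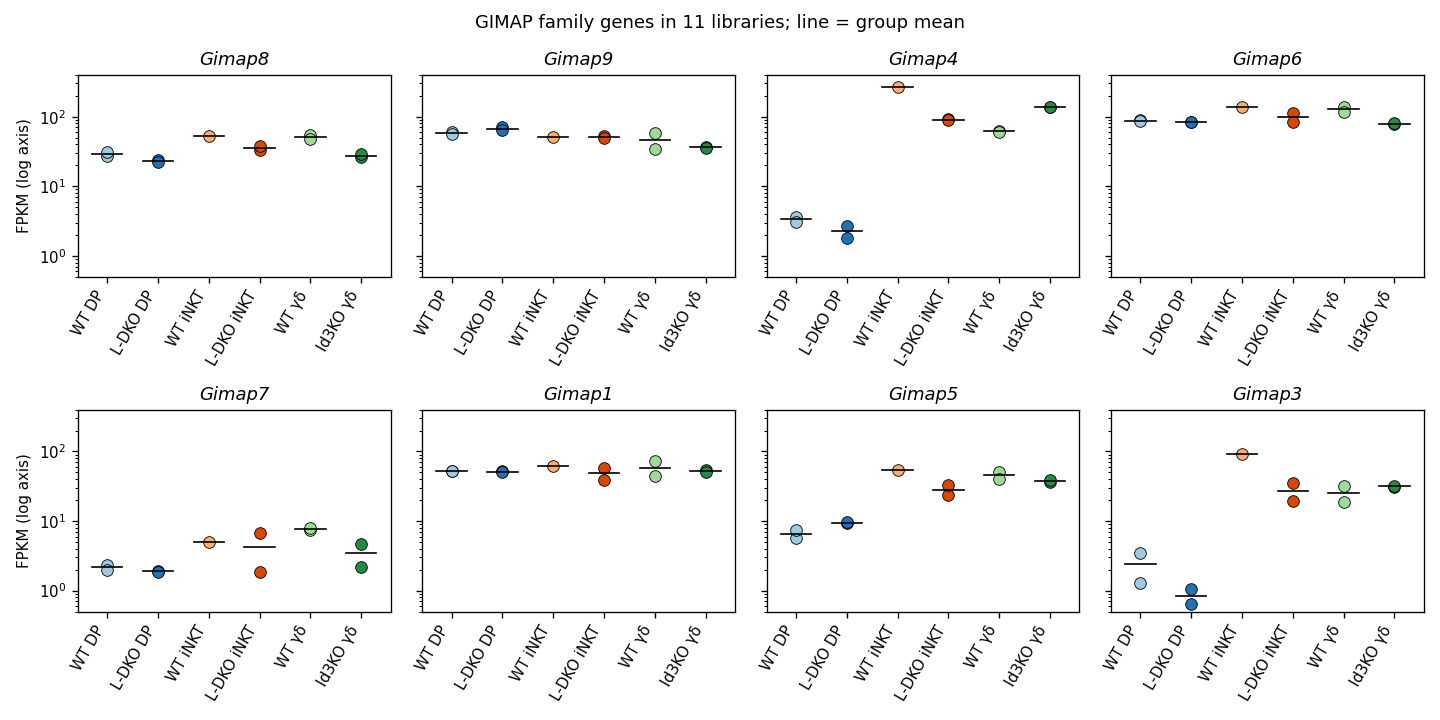
FPKM of each GIMAP gene in the 11 libraries on a log axis, 1 point per library, with the group mean as a line. Gimap4, Gimap3 and Gimap5 sit low in both DP groups and high in the other 4, while Gimap1, Gimap6 and Gimap9 stay between 34.4 and 138 FPKM throughout.

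Because the DP libraries stand apart for several members, likeness between genes was also described over the 7 iNKT and γδ libraries alone, on log2(FPKM + 1). Gimap6 and Gimap8 were most alike (Pearson r = 0.87, Spearman rho = 0.93, n = 7 libraries), and by Pearson alone Gimap3 and Gimap4 came next (r = 0.81, rho = 0.54), whereas several other pairs had a higher rho than theirs. Gimap4 and Gimap5, both low in DP, had an r of 0.26 and a rho of 0.07 among these 7. The points share library totals and are descriptions only.

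Among 7586 other genes compared over all 11 libraries with the mean standardised profile of the members, Gem (r = 0.97), Casp8 (0.96), Mob3a (0.95), Lats2 (0.94), Scamp2 (0.94) and Trim30d (0.94) were most like it. That mean does not stand for every member, since Gimap1 had an r of 0.34 and Gimap9 one of -0.49 with it, against 0.79 to 0.94 for the other 6. Wdr12 (-0.94), Lrig1 (-0.93) and Suz12 (-0.93) were most unlike it. Within the 7 iNKT and γδ libraries the values were 0.95 for Gem, 0.91 for Casp8 and -0.84 for Wdr12. Casp8, an initiator caspase of cell death, averaged 16.6 FPKM in WT DP, 42.5 in WT iNKT and 39.9 in WT γδ.

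Genes of thymocyte maturation and exit were described beside the family. Of 16 listed genes, all measured, 11 were higher and 2 lower in WT iNKT than in DP, and 10 were higher and 1 lower in WT γδ than in DP (limma, adjusted p under 0.05). Over all entries 25% and 20.6% passed. The medians were 2.15 and 2.47 on the log2 scale, beside 0.11 for all entries. Il7r, the receptor for the survival cytokine IL-7, averaged 0.57 FPKM in WT DP, 319 in WT iNKT and 44.9 in WT γδ. Klf2, which drives exit genes, averaged 1.44, 55.6 and 91.1, and its target S1pr1, the exit receptor, 0.19, 15.5 and 37.4.

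Mutant and WT cells were compared for the same genes. In iNKT cells 2 of the 16 were higher and 4 lower in the libraries labelled L-DKO, beside 6.07% of all entries passing in either direction, and the lower ones were Il7r, Gpr183, Ms4a4b and H2-K1. In γδ cells 1 of the 16 was higher in Id3KO, Il7r, and 3 were lower, Foxo1 and Cd27 among them, beside 15.1% of all entries passing. Il7r had the same signs as Gimap4, with log2 differences of -4.23 ± 0.34 in iNKT (limma, adjusted p = 0.0013) and 1.05 ± 0.28 in γδ (limma, adjusted p = 0.0436). H2-K1 has near-identical relatives, so its FPKM is uncertain.

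Partners of GIMAP proteins and other survival genes, 11 listed and measured, split by gene. In WT iNKT against DP 2 were higher, Bcl2 and Bax, and 2 lower, Bcl2l1 and Gsk3b, beside 25% of all entries passing. Their median log2 difference was -0.41, and that of all entries 0.11. Bcl2, which protects mature T cells from death, averaged 7.44 FPKM in WT DP, 46.5 in WT iNKT and 48.2 in WT γδ, whereas Bcl2l1, which encodes the DP survival factor Bcl-xL, averaged 111, 17.3 and 24.0. In WT γδ against DP 2 of the 11 were higher, Bcl2 and Bax, and 1 lower, Bcl2l1, beside 20.6% of all entries passing. In Id3KO γδ 2 of the 11 were lower than in WT γδ, beside 8.35% of all entries lower, with log2 differences of -1.90 ± 0.36 for Bcl2 (limma, adjusted p = 0.0139) and -1.35 ± 0.27 for Bcl2l1 (limma, adjusted p = 0.0161).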

How the data were processed

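RNA-seq libraries of sorted thymocytes were read from 1 deposited table. The authors depleted ribosomal RNA and built stranded paired-end libraries, and used Trimmomatic 0.32, TopHat2 2.0.9 and Cufflinks 2.2.0 with build mm10 (GRCm38), as far as the submitters' processing notes list tools. Per the file headers the deposited values are FPKM, but they are on a log2 scale and were read as log2(FPKM + 1). The authors' mean columns and ratios of group means were not used. Depth is unknown, so no counting interval is given.

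All 11815 entries were tested with limma 3.58.1 in R 4.3.3, with a mean per group, 1 shared spread (5 residual degrees of freedom, 2.87 added by moderation) and Benjamini-Hochberg adjustment over all entries at 0.05, two-sided. The test was checked on simulated data. No low-value filter was applied. Fold changes refer to log2(FPKM + 1), which understates the change of low genes. P-values measure the spread between pools of mice. Named genes were all 8 members, the 6 genes most like their mean profile and the 3 most unlike it, and genes of the lists described, of which 1 is not reported here. The members and gene lists were chosen with earlier results of these data known. Alternatives were a pseudocount of 0.1, a mean of at least 1 FPKM, a fit of the compared groups alone, limma with a trend, quantile normalization, scaling to the same total, removal of small RNA, receptor segments and predicted genes, and leaving out each library. The WT iNKT library could not be left out in comparisons that use its group. Fold changes were followed for members with an unadjusted p under 0.1 in a comparison. Promoters and coordinates (1-based) came from RefSeq tables of GRCm38.p6, in which all 8 genes matched. Stretches of 50 bases were counted in GENCODE protein-coding transcripts. Protein sequences were not used here. Of 12 labelled samples, 1 had no column.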

Additional observations from a re-analysis of the deposited data

Results flagged for a closer look

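Gimap4 drew attention because its difference between mutant and WT was not the same in 2 pairs of cell populations by a test of that contrast itself. The iNKT pair compares libraries labelled L-DKO with WT and the γδ pair Id3KO with WT, so genotype and cell type cannot be told apart, and Id3 was still at 30.5 and 22.8 FPKM in L-DKO iNKT against 42.4 in WT iNKT. The effect in iNKT cells minus the effect in γδ cells was -2.72 ± 0.29 on the log2(FPKM + 1) scale (limma, adjusted p = 0.0035), with lower FPKM in both L-DKO iNKT libraries than in the WT one and higher FPKM in both Id3KO γδ libraries than in both WT ones. The effect in γδ cells minus the effect in DP cells was 1.57 ± 0.26 (limma, adjusted p = 0.0255), a call that was lost on leaving out any one of 7 libraries (limma, adjusted p = 0.0579 to 0.108). In DP cells both L-DKO libraries were below both WT libraries for Gimap4, by an amount that did not pass. No group holds more than 2 libraries, so single libraries could not be screened as outliers.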

How the results depend on the processing

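Of 43 fold changes followed, 427 of 456 values without 1 library and 275 of 301 under the other settings kept direction and side of the threshold. Values that changed sign did so with libraries scaled to the same total. For L-DKO minus WT iNKT these were Gimap5 (0.017), Gimap6 (0.48) and Gimap8 (0.39), for WT iNKT minus DP Gimap6 (-0.29) and Gimap8 (-0.056), for WT γδ minus DP Gimap6 (-0.071), for L-DKO iNKT minus Id3KO γδ Gimap5 (0.057), for the difference between the iNKT and DP effects Gimap4 (0.12), and for that between the iNKT and γδ effects Gimap5 (0.15). Of these, only Gimap8 had passed before. The count of members past the threshold became 1 for γδ, 1 for L-DKO iNKT minus Id3KO γδ and 1 for the difference between the iNKT and DP effects under that scaling. For iNKT the count stayed at 1 under it, from a member other than Gimap4. When only the compared groups were fitted the count became 0 for iNKT, 0 for γδ and 2 for WT iNKT minus WT γδ. Without 1 library it ranged from 1 to 4 for γδ and from 0 to 1 for the difference between the γδ and DP effects. For WT iNKT minus DP it ranged from 3 to 5, for WT γδ minus DP from 3 to 5, and for L-DKO iNKT minus DP from 3 to 4. The cause of these changes was not tested. No paired analysis was possible because the columns carry no replicate numbers.

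With at most 2 libraries a group and FPKM alone, low genes such as Gimap7 are the least certain, and depth cannot be weighed.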

Other observations

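The genes on either side of the GIMAP cluster were also compared. Of the 16 nearest measured genes, 8 on each side, 3 were higher and 1 lower in WT iNKT than in DP (limma, adjusted p under 0.05), which is the same 25% share as over all entries, and their median log2 difference was -0.06. In WT γδ against DP 4 were higher, beside 14.6% of all entries, with a median of 0.26.

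Tmem176b and Tmem176a, membrane proteins known from dendritic and RORγt+ cells, are the next measured genes after Gimap3. In the iNKT comparison their log2 differences were -1.95 and -2.80 in the libraries labelled L-DKO (limma, adjusted p = 0.0118 and 0.0022), and in the γδ comparison -1.32 and -1.30 in Id3KO (limma, adjusted p = 0.0139 and 0.0103). Both genes were thus lower in the mutant libraries of both comparisons, whereas Gimap4 was lower in the iNKT one and higher in the γδ one. The myeloid and dendritic marker sum was higher in WT iNKT and WT γδ than in their mutants, and its part in these values was not tested.

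Other GTPases of immune cells, mostly interferon-induced, were also described. Of 15 listed, 12 were measured, and 8 were higher and 1 lower in WT iNKT than in DP, beside 16.3% of all entries higher and 25% passing. Their median log2 difference was 1.61, and that of all entries 0.11. In libraries labelled L-DKO iNKT, 5 of the 12 were lower than in WT, namely Gbp3, Gbp4, Gbp6, Irgm2 and Gvin1, beside 3.88% of all entries lower. The γδ marker sum (498 FPKM in WT iNKT, 12.1 to 33.3 in L-DKO iNKT) and the myeloid sum (97.3 and 19.0 to 29.0) differed between the same groups, and their part was not tested. Gvin1, a giant interferon-induced GTPase, averaged 84.3 FPKM in WT iNKT, 2.91 in L-DKO iNKT, 14.5 in WT γδ and 8.01 in Id3KO γδ. In Id3KO γδ 3 were lower, Gbp4, Gbp6 and Rhoh, beside 8.35% of all entries lower. Rhoh, a GTPase of T cell receptor signalling, averaged 47.5 FPKM in WT γδ and 12.3 in Id3KO γδ.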
